A study of Mus musculus with 24 samples.

Results

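Collagen chains are the genes examined here, in brain RNA of mice that received angiotensin II, human amnion epithelial cells (AEC), both or neither. Chains were taken as every protein-coding gene of the deposited expression table whose symbol is Col, a type number, the letter a and a chain number. This gave 44 chains among 54532 genes. They were divided by the type of structure that they build: 11 fibrillar chains, 6 basement membrane chains (all of type IV) and 27 other chains. All 44 of 44 were above 0 in at least 6 of the 24 mice and were tested, among 27286 genes in all. The filter on low values therefore removed no chain.

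Brain RNA of 24 male wild type C57Bl6 mice, 8 to 12 weeks of age, was sequenced, with 6 mice in each of 4 groups. The treatments were crossed. Angiotensin II at 0.7 mg/kg/d, or saline as its vehicle, was given through an osmotic minipump for 2 weeks, and AEC, cells from the human placental amnion, or saline were injected once into a tail vein after the pump had been placed. The groups are called vehicle, angiotensin II, vehicle + AEC and angiotensin II + AEC. Angiotensin II infusion is a model of hypertension that does not arise from the animal itself, and the infused AEC were of another species. A brain hemisphere was ground up whole, so vessels, membranes and nervous tissue share 1 library. In such bulk RNA, fewer cells of a type and less RNA per cell cannot be told apart. Levels are given as FPKM, fragments per kilobase of gene length, scaled to the size of the library.

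Collagens are the main structural proteins of the extracellular matrix, and each molecule is a rope of chains wound into a helix. Fibrillar collagens form the tension-bearing fibrils of skin, bone, vessel walls and the membranes around the brain, whereas type IV collagen forms the sheet-like network of basement membranes, which in brain line the capillaries. The remaining types decorate fibrils, form beaded filaments or short networks, or span the cell membrane. Fibrillar collagen accumulates when tissue scars, and in the aorta this group of genes is used as a readout of stiffening.

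Libraries did not all behave alike, and the difference touches the collagens. In 6 libraries, the FPKM values summed to between 338334 and 348597, and in the other 18 to between 277116 and 298301. Both AEC-free and AEC-treated groups held some of them: replicates 5 and 6 of vehicle, replicate 5 of angiotensin II, replicate 6 of vehicle + AEC, and replicates 5 and 6 of angiotensin II + AEC. The labels do not say what sets them apart. Their depth lay between 16536449 and 25308700 reads, that of the other 18 between 16645396 and 22464979. Mitochondrial genes took 6.17 to 6.85% of reads in the 6 and 4.79 to 5.75% in the others. Since the groups hold 2, 1, 1 and 2 of the 6 libraries, results are given with and without them where they matter. Markers of neurons, astrocytes, oligodendrocytes and microglia were above 0 in all 24 mice.

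The 6 type IV genes lie in head-to-head pairs, so 3 stretches of DNA hold the starts of all basement membrane chains, and these are shown because each pair is compared below. Coordinates are of GRCm38, sequence is from RefSeq GRCm38.p6, and capitals mark GGGCGG (the core of a GC box) on either strand or TATAAA. Col4a1 (chr8:11198423-11312826, minus strand) and Col4a2 (chr8:11312805-11449287, plus strand) overlap by 22 bases at chr8:11312805-11312826. Col4a4 and Col4a3 face away from each other across 71 bases at chr1:82586850-82586920. Col4a6 and Col4a5 are 1308 bases apart, and the 250 bases before the Col4a6 start are printed (chrX:141474077-141474326, minus strand). Col3a1, a fibrillar chain with TATAAA before its start (Col11a2 is another), is shown beside them (chr1:45311288-45311537, plus strand).
Col4a1 and Col4a2, shared bases, plus strand: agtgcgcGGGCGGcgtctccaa
Col4a4 to Col4a3, bases between, plus strand: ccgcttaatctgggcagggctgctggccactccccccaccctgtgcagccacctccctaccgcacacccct
Col4a6, bases before the start: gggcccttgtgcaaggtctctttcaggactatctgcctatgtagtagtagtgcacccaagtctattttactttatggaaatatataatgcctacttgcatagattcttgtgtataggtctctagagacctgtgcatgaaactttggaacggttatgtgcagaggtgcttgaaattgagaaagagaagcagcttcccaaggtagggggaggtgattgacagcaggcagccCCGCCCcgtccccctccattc
Col3a1, bases before the start: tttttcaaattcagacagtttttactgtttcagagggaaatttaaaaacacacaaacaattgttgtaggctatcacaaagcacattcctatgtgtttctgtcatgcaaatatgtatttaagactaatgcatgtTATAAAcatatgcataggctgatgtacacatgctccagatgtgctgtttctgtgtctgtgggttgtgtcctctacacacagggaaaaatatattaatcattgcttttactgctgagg

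RefSeq start sites gave 38 windows of 250 bases for 35 of the 44 chains. TATAAA on the gene strand was in 5 of the 38 (13.2%) and in 7.59% of 32851 windows of all genes. The 5 chains were Col3a1, Col10a1, Col11a2, Col13a1 and Col17a1. CCAAT on either strand was in 13 (34.2%), against 33.8% of all windows. GGGCGG on either strand was in 22 (57.9%), against 32.7%. Other chains also lie side by side: Col6a2 and Col6a1 point the same way on chromosome 10, 85161 bases apart, Col3a1 and Col5a2 end towards each other across 24614 bases of chromosome 1, and Col6a6, Col6a5 and Col6a4 follow each other on chromosome 9.

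Most collagen message in the brain came from a few chains. The FPKM of the 44 chains summed to 84.5 ± 3.85 per mouse (SD, n = 24), and Col6a1 and Col4a2 made up 29.8% of that sum. The 6 highest chains made up 55.5%. Col6a1, a chain of the beaded filaments that link cells to their surrounding matrix, was highest at 14.1 ± 1.26 FPKM, and Col4a2, of the basement membrane, followed at 11.1 ± 0.62. Then came Col9a3 (6.56 ± 0.765), Col4a1 (5.26 ± 0.691), Col11a2 (5.14 ± 0.590) and Col9a2 (4.71 ± 1.12). In all, 20 chains had a mean of at least 1 FPKM, 24 were under 1 and 4 of these were under 0.1. The lowest were Col10a1, a chain of hypertrophic cartilage, at 0.0627 ± 0.0377 and Col4a3, a chain of the kidney filter, at 0.0546 ± 0.0255. Neighbours in this order were mostly close beside the spread between mice. In 40 of 43 neighbouring pairs the mean log2 difference was less than its SD over the 24 mice. The exceptions were Col6a1 over Col4a2 and Col4a2 over Col9a3, both in 24 of 24 mice, and Col25a1 over Col27a1 in 22. This SD is not the error of a mean: Col9a3 and Col4a1 were within it, yet Col9a3 was higher in 21 of 24 mice.

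**Figure D1:**
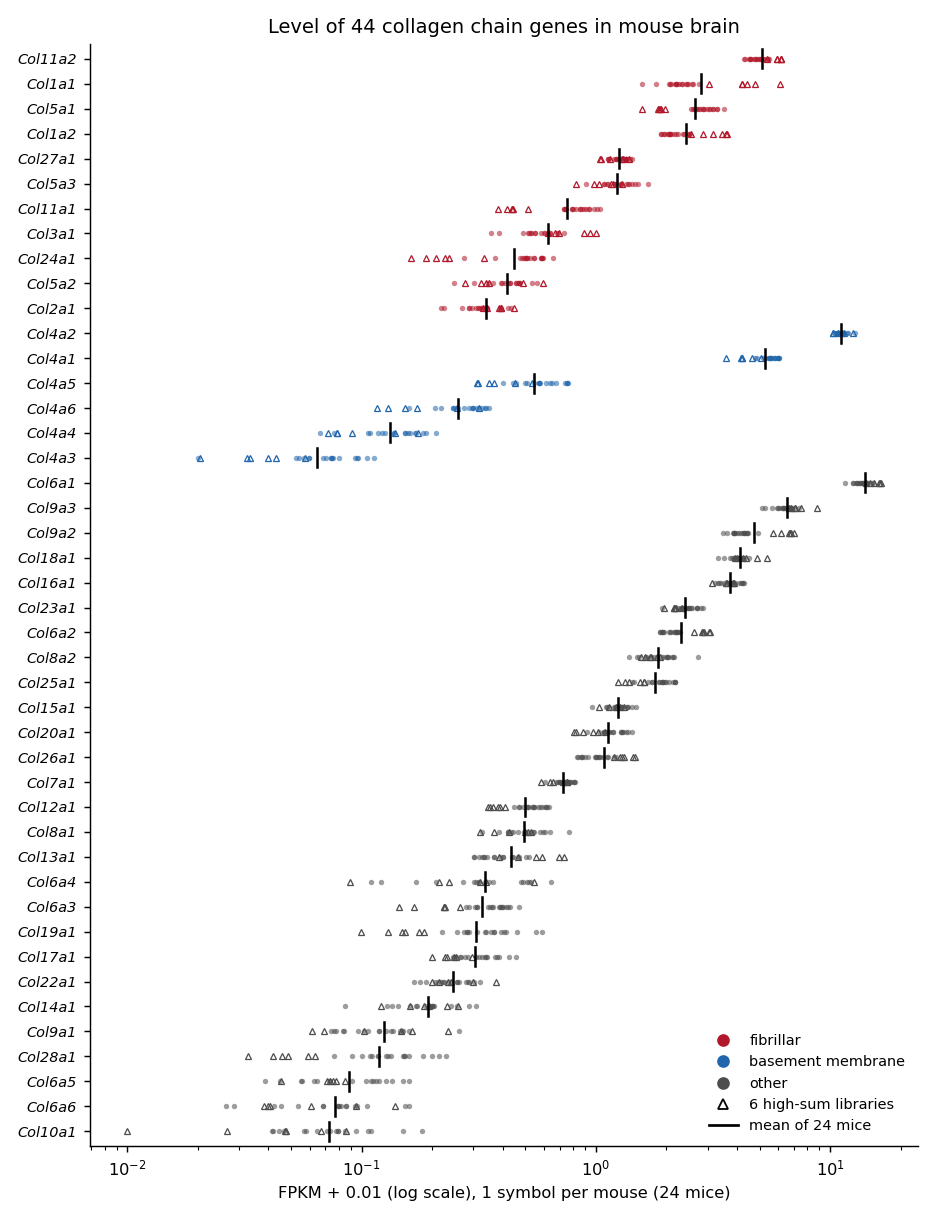
Level of each of the 44 chains in each of the 24 mice, on a log axis of FPKM + 0.01, ordered by mean within the fibrillar (red), basement membrane (blue) and other chains (grey). Triangles are the 6 libraries with a high FPKM sum, and black bars are means. Means run from 14.1 FPKM for Col6a1 to 0.0546 for Col4a3, and the triangles of Col1a1 lie to the right of all circles while those of Col5a1 lie to the left.

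The order depended on the gene length that the authors divided by. For 42 of 44 chains that length equalled all annotated exons of the gene joined together. For 10 chains it was at least 1.5 times the length of the transcript with the longest coding sequence, most for Col25a1 (4.93 times), Col26a1 (3.0 times), Col1a2 (2.32 times) and Col6a2 (2.11 times). With the length of that transcript instead, Col25a1, a neuronal membrane collagen, went from rank 15 to rank 3 of the 44 and from 1.78 to 8.76 FPKM. Col1a2 went from 2.42 to 5.61, which turned its order with Col1a1 (2.80 and 3.10). Col6a1 and Col4a2 stayed first and second. Differences between mice of a single chain do not depend on this length.

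Summed by class, the 11 fibrillar chains reached 17.998 ± 1.54 FPKM, the 6 basement membrane chains 17.3 ± 1.197 and the 27 other chains 49.1 ± 2.68 (SD, n = 24 mice). These were 21.3%, 20.6% and 58.1% of the collagen sum. With the deposited lengths, fibrillar and basement membrane sums were close, and the fibrillar sum was the higher in 12 of 24 mice. With the length of the main transcript they were 25.4 ± 2.42 and 18.4 ± 1.30, and the fibrillar sum was the higher in 24 of 24. The sums came from different numbers of chains: 6 of the 11 fibrillar chains and only Col4a1 and Col4a2 of the 6 type IV chains had a mean of at least 1 FPKM. Variation between mice was of like size in the classes. The median coefficient of variation of a chain was 21.4% among fibrillar, 27.1% among basement membrane and 20.7% among other chains. Counting error is part of it, being 3.62% for Col4a1 with 786 reads in the median mouse and 30.7% for Col4a3 with 11.5.

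Class sums were compared between the groups as values, with no test over the chosen chains. Fibrillar sums were 18.3 ± 1.45 FPKM in vehicle, 18.01 ± 1.09 in angiotensin II, 16.6 ± 0.435 in vehicle + AEC and 19.1 ± 1.88 in angiotensin II + AEC (SD, n = 6 each). Vehicle + AEC was lowest, at 16.1 to 17.2 FPKM, and did not overlap angiotensin II + AEC at 17.6 to 22.5, whereas every other pair of groups overlapped. Those 2 groups were not tested against each other, and no share over other sets of genes is given. Col1a1 alone averaged 2.14 FPKM in vehicle + AEC and 3.47 in angiotensin II + AEC. In the 18 libraries outside the high-sum set these 2 groups had 16.1 to 17.02 (5 mice) and 17.6 to 18.3 (4 mice). Basement membrane sums were 17.2 ± 1.70, 17.9 ± 0.536, 16.8 ± 1.33 and 17.5 ± 0.918 in the same order. Other chains summed to 49.8 ± 2.65, 49.3 ± 2.56, 48.0 ± 2.85 and 49.3 ± 3.07. In both of these classes all groups overlapped. Fibrillar and basement membrane sums lay on opposite sides in the libraries with a high FPKM sum: fibrillar chains had 19.9 ± 1.73 there and 17.4 ± 0.800 in the other 18, while basement membrane chains had 16.1 ± 1.30 and 17.8 ± 0.830.

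**Figure D2:**
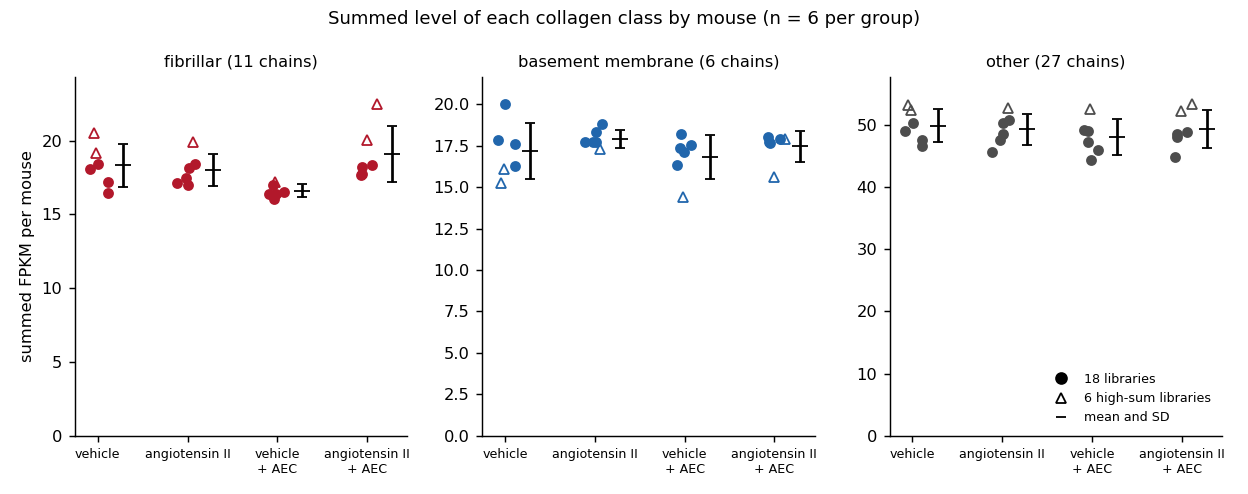
Summed FPKM of the fibrillar, basement membrane and other chains in each mouse, by group, with the group mean and SD (n = 6). Triangles are the 6 libraries with a high FPKM sum. They sit at the top for fibrillar and other chains and mostly at the bottom for basement membrane chains, where the means are 16.1 in the 6 and 17.8 in the 18.

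Among fibrillar chains, the leading ones were Col11a2, a minor fibril chain, then Col1a1 and Col1a2 of type I collagen, the bulk fibril of connective tissue, and Col5a1, which sets fibril diameter. Col1a1 had 2.80 ± 1.11 FPKM, Col5a1 2.65 ± 0.546 and Col1a2 2.42 ± 0.537. The order of the first 2 came from the high-sum libraries, since Col1a1 was above Col5a1 in only 6 of 24 mice. In the 6 high-sum libraries Col1a1 had 4.46 ± 1.0 and Col5a1 1.83 ± 0.136 FPKM. In the other 18 they had 2.25 ± 0.288 and 2.93 ± 0.278. Col3a1, which pairs with type I in vessel walls, had 0.617 ± 0.153 and Col5a2 0.407 ± 0.0871. Col2a1, the cartilage fibril, was lowest of the class at 0.328 ± 0.0599. Col1a1 also varied most of these, from 1.56 to 6.12 FPKM, a coefficient of variation of 39.7% against a counting error of 5.28%.

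Basement membrane chains fell into an abundant pair and 4 scarce chains. Col4a1 and Col4a2, which build the common type IV network, were followed by Col4a5 at 0.534 ± 0.139 FPKM, Col4a6 at 0.247 ± 0.0694, Col4a4 at 0.122 ± 0.0409 and Col4a3, the last in the whole order. Col4a3 shares 5.65% of its exon bases with another gene, so its few reads are uncertain. Although Col4a1 and Col4a2 start from the same 22 bases, Col4a2 was higher in every mouse, with a ratio of 2.15 ± 0.306 on the FPKM scale. The ratio ran from 1.76 to 2.26 in the 18 libraries and from 2.28 to 2.85 in the 6, without overlap.

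Among other chains, each sub-class had 1 or 2 dominant members. Type VI summed to 17.2 FPKM, mostly from Col6a1, since Col6a2 had 2.31 ± 0.400 and Col6a3, the long chain of the same molecule, 0.317 ± 0.0861. With the main transcript's length Col6a2 had 4.87 FPKM beside 15.0 for Col6a1. Fibril-associated chains summed to 17.4 FPKM, led by Col9a3 and Col9a2 and then Col16a1 (3.74 ± 0.315), while Col9a1, the third chain of type IX, had only 0.114 ± 0.0490. Col9a3 shares 6.07% of its exon bases with a neighbouring gene. Both multiplexins, which sit in vessel basement membranes, were above 1 FPKM: Col18a1, the source of endostatin, at 4.10 ± 0.412 and Col15a1 at 1.23 ± 0.12. With the deposited lengths Col23a1 (2.39 ± 0.249) led the transmembrane chains, but with the main transcript's length Col25a1 did, at 8.76 beside 2.43 FPKM. Col8a2 (1.84 ± 0.285) was the highest short-chain network chain and Col26a1 (1.07 ± 0.187) the highest unclassed chain on the deposited scale.

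Angiotensin II, compared with vehicle, asks whether the infusion, a model of hypertension, alters brain collagen message. None of the 44 chains passed an unadjusted p under 0.05 with limma on log2(FPKM + 0.1), where 604 of 27286 genes (2.21%) did, and none passed after Benjamini-Hochberg adjustment, nor did any other gene. With voom on the recovered reads, 1 chain had an unadjusted p under 0.05, as did 2.36% of all genes, and none an adjusted one. Of the 44 differences, 25 were above 0 and 19 below, from -0.22 to 0.35, with a median of 0.02, as over all genes (0.02). The median was 0.02 for fibrillar, -0.03 for basement membrane and 0.03 for other chains. The lowest limma p-values belonged to Col6a5 (0.29, SE 0.155, exact permutation p = 0.104), Col22a1, a chain of tissue junctions (0.26, SE 0.139, exact permutation p = 0.0584), and Col16a1 (0.12, SE 0.0753, exact permutation p = 0.0736). An unadjusted p under 0.05 was reached by Col22a1 when replicate 2 of vehicle or replicate 4 of angiotensin II was left out, and by Col6a5 when replicate 3 or 5 of angiotensin II was. In fits without 1 mouse, 1.97 to 3.09% of all genes reached it.

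AEC given to angiotensin II-infused mice, compared with angiotensin II alone, left 0 of 44 chains past an unadjusted p of 0.05 in limma (background 2.54%, 694 genes), 0 past the adjusted threshold and 0 with voom (background 2.64%). Here 21 differences were above 0 and 23 below, with a median of -0.01 beside -0.02 over all genes. By class the medians were 0.01 for fibrillar, -0.02 for basement membrane and -0.02 for other chains. The angiotensin II mice enter this comparison and the last with opposite sign, so differences of opposite sign in the pair are no independent evidence. Col6a5 had -0.32 (SE 0.155, exact permutation p = 0.0952), and its unadjusted limma p was under 0.05 without angiotensin II replicate 3 or 5 or angiotensin II + AEC replicate 3, where the background over fits without 1 mouse was 2.24 to 3.25%.

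In vehicle-infused mice, AEC left 0 of 44 chains past an unadjusted p of 0.05 in limma (background 2.41%, 658 genes) and 0 past the adjusted one. Voom also gave 0 (background 2.33%). Of the 11 fibrillar chains, 9 had a difference below 0, with a median of -0.13, beside -0.04 for basement membrane chains, 0.002 for other chains and 0.01 for all genes. The median SE of a fibrillar chain was 0.163, and no share of all genes below 0 is given. Fibroblast markers, none of them a collagen, had a median difference of -0.15 in the same comparison, and 1 of 10 passed an unadjusted p of 0.05. Their part in the fibrillar differences was not tested. This comparison shares the vehicle mice with that of angiotensin II. One chain, Col9a1, passed without vehicle replicate 1 (background 2.66%), and 2 chains, Col1a1 and Col26a1, without vehicle + AEC replicate 6 (4.35%). With the high-sum set as a term, 4 of 44 chains passed an unadjusted limma p of 0.05 (background 3.54%), and 0 the adjusted one. Beside Col1a1, these were Col5a1 (-0.16, 95% interval -0.31 to -0.004), Col4a6 (-0.35, -0.67 to -0.02) and Col4a3 (-0.26, -0.51 to -0.0007). In the 18 libraries alone only Col1a1 passed (background 4.18%).

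Averaged over both arms, 12 mice against 12, angiotensin II gave 0 chains under an unadjusted p of 0.05 in limma (background 2.39%) and AEC gave 0 (background 2.44%), with 0 past the adjusted threshold in both. Voom gave 1 (background 2.36%) and 0 (2.35%). For angiotensin II, 33 of 44 differences lay above 0, with a median of 0.04 beside 0.004 over all genes, and for AEC 14 lay above 0, with a median of -0.03 beside -0.003. The median SE of a chain was 0.111 in both. Chains share the same mice, so their signs are not independent, and no share of all genes above 0 is given. Without a term for the library set, Col5a2, the partner of Col5a1, had the lowest p for angiotensin II (0.21, SE 0.111, 95% interval -0.02 to 0.44). For AEC the lowest belonged to Col27a1 (-0.10, SE 0.0633, 95% interval -0.23 to 0.03). With the high-sum set as a term, 2 chains passed an unadjusted limma p of 0.05 for angiotensin II (background 4.43%). They were Col1a1 (0.21, 95% interval 0.07 to 0.34, adjusted p = 0.9998) and Col4a1 (0.10, 0.01 to 0.19, adjusted p = 0.9998). In the 18 libraries these were 0.15 (-0.005 to 0.30) and 0.06 (-0.04 to 0.16). Col11a2 passed there (0.12, 0.02 to 0.22, background 3.88%).

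**Figure D3:**
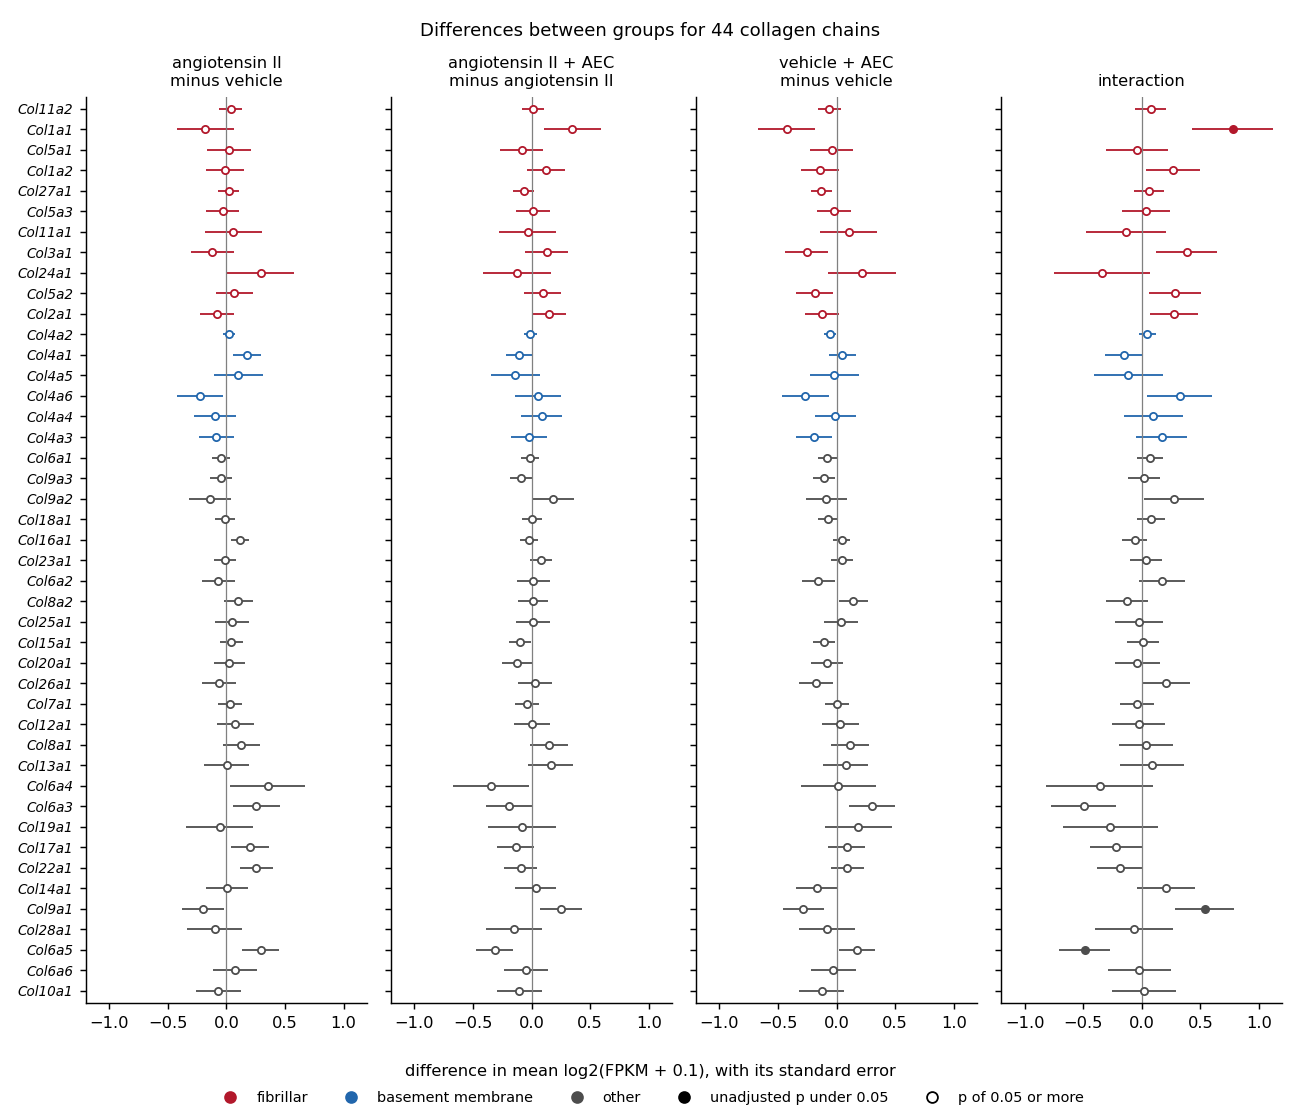
Difference in mean log2(FPKM + 0.1) and its SE for the 44 chains in the 3 pairwise comparisons and the interaction, coloured by class. Filled points have an unadjusted p under 0.05. All points of the pairwise panels are open, and the filled points of the interaction are Col1a1, Col9a1 and Col6a5.

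The chains measured in the aorta by the study, Col1a1, Col3a1, Col4a1 and Col5a1, were followed mouse by mouse in the brain. Col1a1 ranged from 2.17 to 4.42 FPKM in vehicle (median 2.45), from 2.04 to 4.21 in angiotensin II (2.26), from 1.56 to 3.02 in vehicle + AEC (2.14) and from 2.32 to 6.12 in angiotensin II + AEC (2.58). In every group its highest values were those of the libraries with a high FPKM sum, and all groups overlapped. The angiotensin II minus vehicle difference was -0.18 (95% interval -0.69 to 0.32, exact permutation p = 0.442, two-sided). It was -0.03 (-0.23 to 0.16) with the high-sum set as a term in limma and -0.04 (-0.25 to 0.18) in the 18 other libraries, and leaving out 1 mouse gave -0.32 to -0.06. AEC in angiotensin II-infused mice gave 0.35 (-0.16 to 0.85, exact permutation p = 0.214) and in vehicle-infused mice -0.43 (-0.93 to 0.08, exact permutation p = 0.0952). With the high-sum set as a term, the last became -0.28 (-0.48 to -0.09, adjusted p = 0.9999) and in the 18 libraries alone -0.24 (-0.46 to -0.02). In angiotensin II-infused mice the AEC difference was 0.20 (0.01 to 0.39) with that term and 0.13 (-0.09 to 0.34) in the 18 libraries.

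Col3a1 ranged from 0.505 to 0.990 FPKM in vehicle (median 0.644), from 0.348 to 0.878 in angiotensin II (0.600), from 0.375 to 0.618 in vehicle + AEC (0.555) and from 0.540 to 0.935 in angiotensin II + AEC (0.610). The groups overlapped throughout. Angiotensin II differed from vehicle by -0.12 (-0.50 to 0.26, exact permutation p = 0.591), and angiotensin II + AEC differed from angiotensin II by 0.13 (-0.25 to 0.51, exact permutation p = 0.522). In the 18 libraries these were -0.08 (-0.45 to 0.29) and 0.10 (-0.28 to 0.47). Type I collagen's other chain, Col1a2, gave -0.01 (-0.35 to 0.32) and 0.13 (-0.21 to 0.46) in these comparisons, and turned to 0.11 (-0.09 to 0.31) and -0.01 (-0.20 to 0.19) in the 18 libraries.

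Col4a1 ranged from 4.14 to 5.97 FPKM in vehicle (median 5.03), from 5.04 to 6.07 in angiotensin II (5.65), from 3.59 to 5.96 in vehicle + AEC (5.53) and from 4.20 to 5.91 in angiotensin II + AEC (5.47). Its lowest values were those of the high-sum libraries, the reverse of Col1a1. Angiotensin II minus vehicle was 0.18 (-0.06 to 0.41, exact permutation p = 0.108), and angiotensin II + AEC minus angiotensin II was -0.11 (-0.34 to 0.13, exact permutation p = 0.275). In the 18 libraries the first was 0.08 (-0.06 to 0.23) and the second -0.02 (-0.16 to 0.12). Col4a2, its partner, varied less, with 0.03 (-0.08 to 0.13) and -0.01 (-0.12 to 0.10), so changes beyond about 0.13 on the log2 scale lay outside its intervals.

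Col5a1 ranged from 1.84 to 3.53 FPKM in vehicle (median 2.81), from 1.84 to 3.15 in angiotensin II (2.86), from 1.56 to 3.17 in vehicle + AEC (2.73) and from 1.86 to 3.28 in angiotensin II + AEC (2.77). The group medians differed by less than the spread of any group. Angiotensin II minus vehicle was 0.02 (-0.36 to 0.41, exact permutation p = 0.918) and turned to -0.10 (-0.29 to 0.09) in the 18 libraries. AEC under angiotensin II gave -0.09 (-0.47 to 0.30, exact permutation p = 0.680), which turned to 0.02 there.

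**Figure D4:**
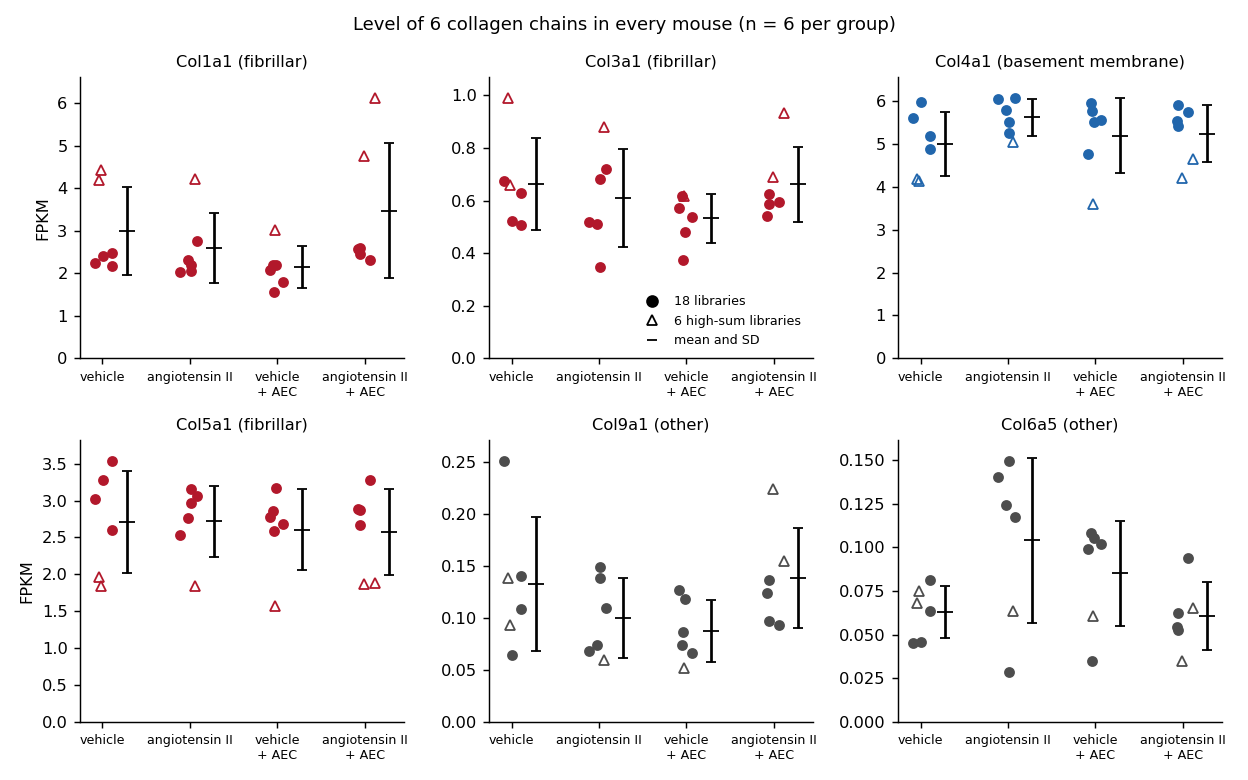
FPKM of Col1a1, Col3a1, Col4a1, Col5a1, Col9a1 and Col6a5 in every mouse, by group, with the mean and SD (n = 6). Triangles are the 6 libraries with a high FPKM sum. They are the highest Col1a1 values and the lowest Col5a1 values of each group, and the groups overlap in every panel.

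The interaction compares the AEC difference under angiotensin II with that under vehicle, and it was the comparison in which chains passed an unadjusted p under 0.05: 3 of 44 (6.82%), where 2.54% of all genes did (692). None of the 3 had an adjusted p under 0.05. Col1a1 had an interaction of 0.78 (SE 0.345, 95% interval 0.06 to 1.49, adjusted p = 0.931). Col9a1, which with Col9a2 and Col9a3 forms a collagen of the fibril surface, had 0.54 (SE 0.251, 95% interval 0.02 to 1.06, adjusted p = 0.931). Both had lower means in vehicle + AEC than in vehicle and higher means in angiotensin II + AEC than in angiotensin II. Col6a5, a scarce beaded filament chain, had -0.49 (SE 0.219, 95% interval -0.94 to -0.03, adjusted p = 0.931). The count fell to 0 without angiotensin II replicate 4, without vehicle + AEC replicate 2 or without angiotensin II + AEC replicate 5. It was 1 without vehicle replicate 3 or 5, angiotensin II replicate 2 or 6, vehicle + AEC replicate 1 or 3 or angiotensin II + AEC replicate 2 or 6. Over the 24 fits without 1 mouse the background was 2.26 to 4.56%.

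Depth limits the 2 scarce chains of the interaction. Col9a1 had 5 to 24 reads per mouse, and counting error alone would give a coefficient of variation of 29.8%, beside the 42.9% measured. Its FPKM ranged from 0.0637 to 0.250 in vehicle (median 0.123), from 0.0591 to 0.149 in angiotensin II (0.0914), from 0.0514 to 0.127 in vehicle + AEC (0.0804) and from 0.0926 to 0.224 in angiotensin II + AEC (0.130). Col6a5 had 5 to 28 reads per mouse. It ranged from 0.0449 to 0.0811 FPKM in vehicle (median 0.0658), from 0.0287 to 0.149 in angiotensin II (0.121), from 0.0350 to 0.108 in vehicle + AEC (0.101) and from 0.0351 to 0.0942 in angiotensin II + AEC (0.0585).

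Col1a1 was the chain of the 3 that kept an unadjusted p under 0.05 in the interaction among the 18 libraries, but at a smaller size. Its interaction was 0.48 (0.20 to 0.76, adjusted p = 0.99997) with the high-sum set as a term and 0.37 (0.06 to 0.68, adjusted p = 0.9999) in the 18 libraries. In those 18, Col1a1 averaged 2.33 ± 0.143 FPKM in vehicle (4 mice), 2.28 ± 0.292 in angiotensin II (5 mice), 1.97 ± 0.277 in vehicle + AEC (5 mice) and 2.48 ± 0.127 in angiotensin II + AEC (4 mice). Vehicle and vehicle + AEC overlapped there, at 2.17 to 2.47 and 1.56 to 2.20, whereas vehicle + AEC and angiotensin II + AEC, at 2.32 to 2.60, did not. The last 2 groups were not tested against each other, and no share over all genes is given. Col9a1 had 0.31 (-0.30 to 0.91) there and Col6a5 -0.57 (-1.15 to 0.01).

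Genes that fold, cut, cross-link, bind or accompany collagen were listed by role: 20 folding and modifying enzymes and chaperones, 8 propeptide proteases and their helpers, 6 cross-linking enzymes, 10 receptors and 16 basement membrane partners. Of the 60, 59 were tested, and 0 passed an unadjusted p of 0.05 in limma in any of the 6 comparisons, where 2.21 to 2.54% of all genes did. For angiotensin II against vehicle, the lowest p belonged to P3h1, a prolyl 3-hydroxylase, with 3.36 FPKM in vehicle and 3.07 in angiotensin II (-0.12, SE 0.0758, adjusted p = 0.994). For AEC under angiotensin II it belonged to Colgalt2, which adds galactose to collagen (-0.25, SE 0.137, adjusted p = 1). The median difference over the 59 was 0.06 in the first comparison and -0.05 in the second.

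Much larger differences separated the 2 sets of libraries. With group in the limma model, 26 of 44 chains differed between the 6 high-sum libraries and the other 18 at an adjusted p under 0.05, 11 higher and 15 lower in the 6. Over all genes 22.3% were higher and 31% lower. The chains' share, 59.1%, was near the 53.3% of all genes tested. The median over all genes was -0.07. Of the 26 chains, 23 kept their direction and an adjusted p under 0.05 also after rescaling by median ratios and with voom.

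Fibrillar chains split in both directions, 4 higher and 3 lower in the 6, a share of 63.6% beside the 53.3% of all genes. Col1a1 rose from 2.25 ± 0.288 FPKM in the 18 to 4.46 ± 1.0 in the 6 (0.89, SE 0.0773), without overlap, and Col1a2 rose from 2.15 ± 0.208 to 3.20 ± 0.437 (0.54, SE 0.0700). Col3a1 and Col11a2 rose as well. Col5a1 fell from 2.93 ± 0.278 to 1.83 ± 0.136 (-0.67, SE 0.0601) and Col11a1 from 0.847 ± 0.0979 to 0.429 ± 0.0436 (-0.85, SE 0.0866), again without overlap, and Col24a1 fell by 0.95 on the log2 scale. Type I and III chains were thus high in the very libraries in which Col5a1, Col11a1 and Col24a1 were low.

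Of the 6 basement membrane chains, 4 were lower in the 6 libraries and 0 higher. This was a share of 66.7%, where 53.3% of all genes were called in either direction, 31% lower and 22.3% higher. Col4a1 fell from 5.58 ± 0.378 to 4.30 ± 0.493 FPKM (-0.37, SE 0.0526), and Col4a3, Col4a5 and Col4a6 fell too, whereas Col4a2 had 11.1 in both sets (-0.01, SE 0.0376, adjusted p = 0.808). Among other chains 7 rose and 8 fell, a share of 55.6% beside the same 53.3%. Col9a2 rose from 4.11 ± 0.343 to 6.51 ± 0.481 (0.64, SE 0.0568). In type VI, Col6a2 rose by 0.43 and Col6a1 by 0.20 while Col6a3 fell from 0.357 ± 0.0531 to 0.199 ± 0.0437, so that the Col6a1 to Col6a3 ratio was 28.1 to 53.1 in the 18 and 65.1 to 120.2 in the 6.

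**Figure D5:**
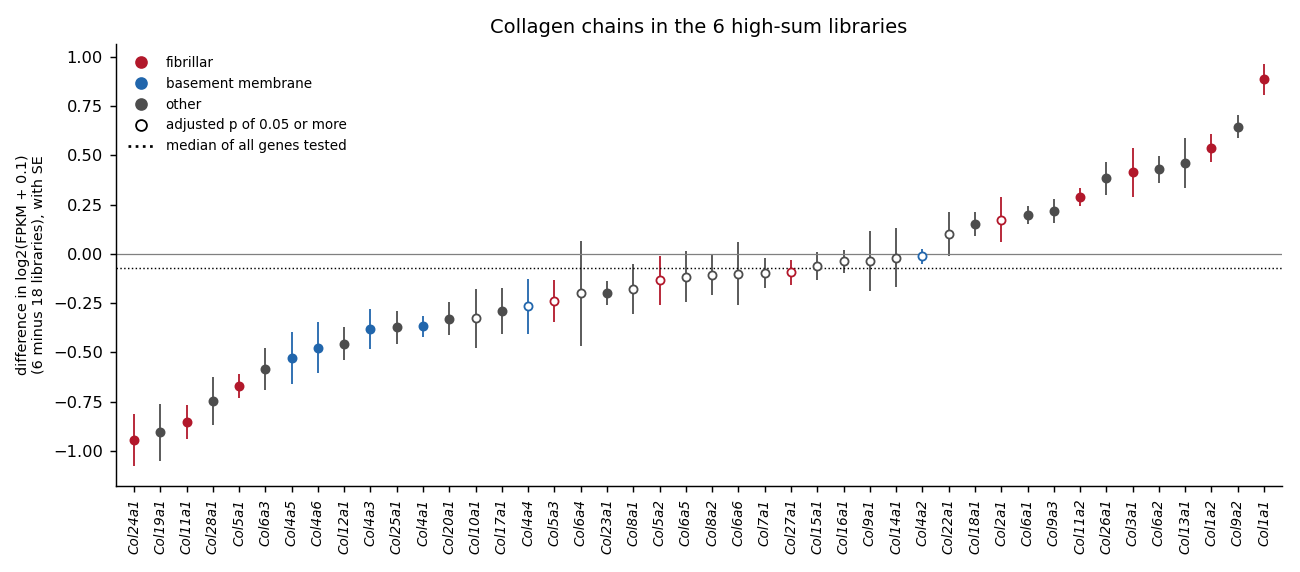
Difference in log2(FPKM + 0.1) between the 6 libraries with a high FPKM sum and the other 18, with its SE, for each of the 44 chains in order of size. Filled points have an adjusted p under 0.05, and the dotted line is the median of all genes tested (-0.07). Col1a1 is highest at 0.89 and Col24a1 lowest at -0.95, and no basement membrane chain is filled above 0.

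Markers of several cell types moved with the set. Summed fibroblast markers were 29.2 to 36.5 FPKM in the 18 libraries and 41.9 to 55.7 in the 6, endothelial markers 56.4 to 77.8 and 88.4 to 107, mural cell markers 32.2 to 40.7 and 50.2 to 67.3, and choroid plexus markers 357 to 777 and 840.4 to 1127. Oligodendrocyte markers, at 799.04 to 962 and 979 to 1210, did not overlap either. Neuronal markers (668 to 723 and 722 to 774), astrocyte markers (137 to 159 and 149 to 176), microglial markers (38.04 to 42.8 and 39.4 to 47.8) and erythroid markers (32.9 to 189 and 123 to 204) overlapped but had higher means in the 6. All 9 lists were thus higher on average in the libraries in which 4 type IV chains were lower. Because the 6 were picked by a high FPKM sum, higher marker sums there are partly set by that choice. Single genes also weigh heavily: Ttr averaged 664 FPKM in the choroid plexus list and Cldn5 47.9 in the endothelial list. Every marker was above 0 in all mice. Chains that were higher in the 6 had a median GC content of 59.2% in their main transcript (52.5 to 64.1%), those lower 53.6% (48.0 to 58.2%) and those past neither threshold 53.2%. Over the 44 chains, the difference and the GC content had a Spearman rho of 0.54, and the difference and the deposited length -0.21. These are descriptions across chains that share the same libraries, and the part of cell make-up, base composition or library quality in the differences was not tested.

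Within the 18 libraries, chains were correlated over log2(FPKM + 0.1) of the mice of all 4 groups. The sum of Col1a1, Col1a2 and Col3a1 followed the summed fibroblast markers with a Pearson r of 0.52 (permutation p = 0.0261, adjusted p = 0.137 over 13 relations) and a Spearman rho of 0.59 (permutation p = 0.0121, adjusted p = 0.0787), so neither passed the adjusted threshold. Without the 2 libraries farthest from the median of the markers r was 0.43, and in the 6 high-sum libraries it was -0.04. Col3a1 and Col1a1 had an r of 0.62 (adjusted permutation p = 0.0950), which dropped to 0.33 without 2 libraries, and 62 of 13649 genes had a higher r with Col3a1. Col6a1 and Col6a2 had 0.51 (adjusted permutation p = 0.137) and 0.20 without 2. Chains of 1 head-to-head pair had low values in the 18: r was 0.25 for Col4a1 and Col4a2, 0.05 for Col4a3 and Col4a4 and 0.09 for Col4a5 and Col4a6. In the 6 high-sum libraries the same pairs had 0.72, 0.10 and -0.16. Values of other partners also differed between the sets, with 0.28 in the 18 and 0.77 in the 6 for Col1a1 and Col1a2, and -0.25 and 0.82 for Col9a1 and Col9a2. Only 6 libraries stand behind the second values. Some of these chains had few reads in the median mouse: 11.5 for Col4a3, 26 for Col4a4 and 11 for Col9a1. Their counting errors were 30.7%, 19.9% and 29.8%. Counting error lowers r, and its part in these values was not tested.

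Genes most like a chain over the 18 libraries were sought among non-collagen genes with a mean of at least 1 FPKM. For Col1a2 they began with Igfbp5, a binding protein of insulin-like growth factors (r = 0.78), Vwa5b1 (0.78) and Wdr55 (0.74), and included Prelp, a small proteoglycan of matrix (0.73). For Col4a1 the first was Adamts2, the protease that trims the ends of fibrillar procollagens (0.83), followed by Stk38l (0.77) and Eml4 (0.74). For Col9a3 they began with Uqcrh, a subunit of the respiratory chain (0.84), and Mdh1, malate dehydrogenase (0.82). These were the highest correlations among all genes compared, over 18 libraries, and are given as a description.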

How the data were processed

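The authors sequenced poly-A RNA of brain hemispheres of 24 mice on the Illumina HiSeq platform, mapped it to the Ensembl mouse genome (GRCm38) and tested it with DESeq 1.10.1, as the submitters' processing notes and the methods state. The aligner, counting program and use of strand are not given in the sources used here. The deposited table holds FPKM values per gene and mouse, divided by the authors for gene length and library size. Reads behind each value were recovered from the steps of FPKM times gene length (100% of values were whole within 0.05) and give 16536449 to 25308700 reads per mouse. Counting errors cover sampling of reads only.

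Groups came from the treatment labels of the samples, and replicate numbers from the sample titles. Nothing in the labels ties mice of different groups together, and separate animals are the replicates. Genes above 0 in at least 6 of 24 mice were tested with limma 3.58.1 in R 4.3.3 on log2(FPKM + 0.1), with all 4 groups in 1 fit, a prior variance that follows the mean level, and p-values adjusted by Benjamini-Hochberg over 27286 genes. Differences are on that scale and understate changes of scarce chains. A p is unadjusted unless called adjusted. Named chains were also tested with two-sided exact permutation tests over the 924 splits of 6 against 6 mice. Correlations over mice used 100000 permutations. Alternatives were pseudocounts of 1 and 0.01, no filter and a filter at a mean FPKM of at least 1, median ratio rescaling, voom on the recovered reads, array weights, the replicate number as a block, the set of 6 libraries with an FPKM sum above 320000 as a term, the other 18 libraries alone, leaving out each mouse, and, for class sums, another place for types XV and XVIII. A shorter gene length, and rescaling and voom for the comparison of library sets, were added after the data had been seen. The fits were checked on simulated data. Named chains were those measured in the aorta, their partners, the highest of each class, and in each comparison the 3 lowest p-values and every p under 0.05. The chains, classes, partner genes and markers were chosen with earlier results of these data known. Chain lengths, GC content and neighbours came from GENCODE M21, sequences from RefSeq. Python 3.11.15, numpy 2.4.6, pandas 2.3.3, scipy 1.17.1 and matplotlib 3.10.9 were used.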

Additional observations from a re-analysis of the deposited data

Results flagged for a closer look

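In 116 groups of 6 values (each named chain or class sum in each treatment group), the gap between the most extreme mouse and its neighbour was compared with Dixon's critical value at 95%. This marked 11, where chance marks about 1 in 20 groups. Of the 11 values, 10 were from the 6 libraries with a high FPKM sum.

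Fibrillar values that stood apart were Col1a1 in angiotensin II replicate 5, at 4.21 FPKM beside 2.04 to 2.76 in its group, Col3a1 in vehicle replicate 5, at 0.990 beside 0.505 to 0.673, Col11a2 in vehicle + AEC replicate 6, at 6.17 beside 4.34 to 4.84, and Col5a1 in the same mouse, low at 1.56 beside 2.59 to 3.17. Type IV values were Col4a2 in angiotensin II + AEC replicate 6, high at 12.5 beside 10.8 to 11.4, and Col4a6 in vehicle replicate 6, low at 0.162 beside 0.287 to 0.331. The summed basement membrane chains of angiotensin II + AEC replicate 5 were low at 15.6 beside 17.7 to 18. Among other chains, vehicle + AEC replicate 6 was high for Col6a2 (3.07 beside 1.88 to 2.20) and Col26a1 (1.45 beside 0.833 to 0.988), and vehicle replicate 5 for Col18a1 (5.36 beside 3.73 to 4.13). The value outside the 6 libraries was Col22a1 in vehicle replicate 2, high at 0.292 beside 0.158 to 0.205.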

How the results depend on the processing

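No chain passed an adjusted p of 0.05 between groups under any alternative run, the lowest being 0.62 in the interaction. Counts of chains under an unadjusted p of 0.05 were small and moved. The share of all genes under that p in the same fit stands in brackets. Angiotensin II against vehicle, 0 as reported, gave 2 with a pseudocount of 1 (2.25%), 1 with voom (2.36%) and 1 with array weights (4.6%). AEC under angiotensin II gave 1 with a pseudocount of 1 (2.55%) and 1 with the library set as a term (3.9%). AEC under vehicle gave 1 with array weights (4.88%), 4 with the library set (3.54%) and 1 in the 18 libraries (4.18%). The interaction, 3 as reported, gave 1 with a pseudocount of 0.01 (2.46%) and 1 in the 18 libraries (4.2%). Of the 20 chains with a mean of at least 1 FPKM, 1 passed (0.865%). An unchanged count did not mean the same chains. With the library set as a term (3.41%), Col4a6 passed (0.48, 95% interval 0.01 to 0.95) and Col6a5 did not (-0.45, -0.91 to 0.02). Col6a5 did not pass with voom (2.66%), nor did Col9a1 with array weights (4.7%) or the replicate block (5.19%). The average of angiotensin II gave 1 with voom (2.36%), 1 with array weights (4.35%), 2 with the library set (4.43%) and 1 in the 18 libraries (3.88%). The causes were not tested. Leaving out 1 mouse gave 0 to 1, 0 to 1, 0 to 2 and 0 to 3 chains in these 4 comparisons (1.97 to 4.56%), 0 to 1 for the average of angiotensin II and 0 to 0 for that of AEC (2.19 to 2.69%).

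Same-numbered mice of different groups were not paired by the labels: their deviations correlated over 0.1 in 28 of 36 pairs (-0.22 to 0.80, median 0.35), beside a median of 0.07 for other pairs, and 7 of 24 mice correlated best with their own number. With the replicate number as a block, counts were 1 for angiotensin II against vehicle (Col4a1, beside 3.48% of all genes), 1 for AEC under vehicle (Col1a1, 3.8%) and 1 for the average of AEC (Col9a3, 3.03%).

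Signs turned for Col5a1: in angiotensin II against vehicle to -0.056 with array weights, -0.087 with the library set and -0.097 in the 18 libraries, in AEC under angiotensin II to 0.027 and 0.015 with the last 2, and in the interaction to 0.084, 0.18 and 0.15 with the 3. The Col1a2 interaction turned to -0.026 in the 18 libraries and Col4a1 in AEC under vehicle to -0.013 with the library set. Leaving out 1 mouse spanned 0 for Col5a1 (-0.074 to 0.13 for angiotensin II, -0.14 to 0.091 for AEC under vehicle, -0.18 to 0.057 for the interaction), Col3a1 (-0.22 to 0.0031 for angiotensin II) and Col4a1 (-0.0021 to 0.15 for AEC under vehicle). The correlation of type I and III chains with fibroblast markers was 0.34 (permutation p = 0.106) over 24 mice as deviations from group and set. Counting types XV and XVIII with the basement membrane gave 22.7 FPKM there and 43.8 in other chains, and the main transcript's length gave 25.4 for fibrillar and 67.5 for other chains. Chains differing between the library sets numbered 24 after rescaling and 28 with voom, beside 26. Depth limits chains under 0.1 FPKM, with medians of 4 to 12 reads.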
